A study of Mus musculus with 8 samples.

Results

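Glycolysis is the chain of cytosolic enzymes that splits glucose into pyruvate, and the hypoxia response is the programme that raises these enzymes, glucose uptake and vessel growth when oxygen is short. Its switch is HIF, a transcription factor whose alpha subunit is marked for destruction by oxygen-dependent prolyl hydroxylases. ERK signalling is known, mainly from cultured and tumour cells, to act on HIF activity and on pyruvate kinase. The 37 genes described here were listed by role in these pathways: glucose and lactate transporters, the glycolytic enzymes, the enzymes that decide the fate of pyruvate, the oxygen sensors and the genes HIF is best known to induce. All probes carrying one of these gene symbols were taken. Of the 37 genes 32 had at least 1 named probe (49 probes in all), 28 had a probe above the filter on dim probes and were tested, and 4 (Slc16a1, Adm, Bnip3 and Car9) lay below it. Gpi1, Eno1, Ldhb, Ankrd37 and Ero1l were not analysed here.

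RNA was measured on 1-colour Illumina bead arrays in mouse dorsal root ganglia taken at embryonic day E12.5, in 4 samples of the conditional mutant Erk1/2CKO(Wnt1) and 4 wild-type samples. The mutant label names a conditional knockout of Erk1/2, which end the ERK/MAPK cascade, under Wnt1 control. Whether both genes are deleted only by the Wnt1-controlled Cre recombinase, which acts in the neural crest, is not stated here. Vessels, blood cells and macrophages of the ganglion have another origin, and their genotype was not checked. The ganglia were from 3 litters, but the labels tie no sample to a litter and do not say whether a sample pools embryos, so some samples share a litter and p-values measure the spread between these samples. The 8 arrays lay on 1 slide, mutant samples after wild-type samples, so position and genotype cannot be told apart. The deleted genes were not analysed here, so the genotype labels were not checked on them.

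Median raw intensity was 138 to 147 on the mutant arrays and 144 to 159 on the wild-type arrays. Of the sensory neuron markers 10 of 12 were tested and 1 of them, Tlx3, was called, higher in the mutant (0.75). In 3 of the 10 every mutant array lay above every wild-type array, against 6.3% of all genes. Their mean deviation from each gene's mean was -0.02 to 0.28 on the mutant arrays. It was 0.14, 0.05, -0.32 and -0.24 on wild-type arrays 1 to 4. Of the glial markers 3 were tested. Egr2 was called lower in the mutant, but it passed the filter through the wild-type group alone. Fabp7 (-0.52) and Gfra3 (0.57) differed in opposite directions and were not called. Wild-type replicates 3 and 4 stood apart from the other 6 arrays: the summed level of 7 cell cycle genes, as a mean deviation from each gene's mean over all arrays, was 0.72 and 0.60 there, against -0.35 to -0.12 on the mutant arrays and -0.22 and -0.19 on wild-type replicates 1 and 2. Where a call turned on that split, its value against each pair of wild-type arrays is given.

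Pkm, which encodes the muscle and embryonic pyruvate kinase of the last glycolytic step, was 1.99-fold higher in the mutant ganglia (95% interval 1.63 to 2.43), and it was the only one of the 28 tested genes that passed the test, a share near that of all genes called higher (1.4%). None of the other 27 genes was called, and the 95% interval of 26 of them lay inside a 2-fold change in either direction, and of 21 inside a 1.5-fold change. Among all 8711 genes that were not called, 97.1% and 86.2% had intervals inside those limits.

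Pkm was measured by 1 probe, with deposited intensities of 6610, 5623, 6463 and 6479 on mutant arrays 1 to 4, against 3948, 3074, 3554 and 4386 on wild-type arrays 1 to 4. After background correction and normalization its log2 intensity was 12.83, 12.54, 12.89 and 12.66 in the mutant, against 11.73, 11.41, 11.85 and 11.97 in the wild-type. The groups did not overlap, and the lowest mutant array lay above the highest wild-type array. The log2 difference, mutant minus wild-type, was 0.99 ± 0.13 (SE of the fit, n = 4 per group; limma, Benjamini-Hochberg adjusted p = 0.00498), rank 29 by p among 8935 named genes. Over all those genes 1.4% were called higher and 1.11% lower in the mutant, so 1 of 28 called higher and 0 of 28 called lower are counts near that background; by the unadjusted limma p, 2 of the 28 were higher and 2 lower, against 9.51% and 8.55% of all genes. Pkm was called when any single array was left out (0.88 to 1.07), without wild-type replicates 3 and 4 (1.16, adjusted p = 0.00468). It was also called with those 2 as the only wild-type arrays (0.82, adjusted p = 0.0035). The gene makes the M1 and M2 enzymes by alternative splicing, and which of them the probe reads is not given in the sources used here.

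**Figure D1:**
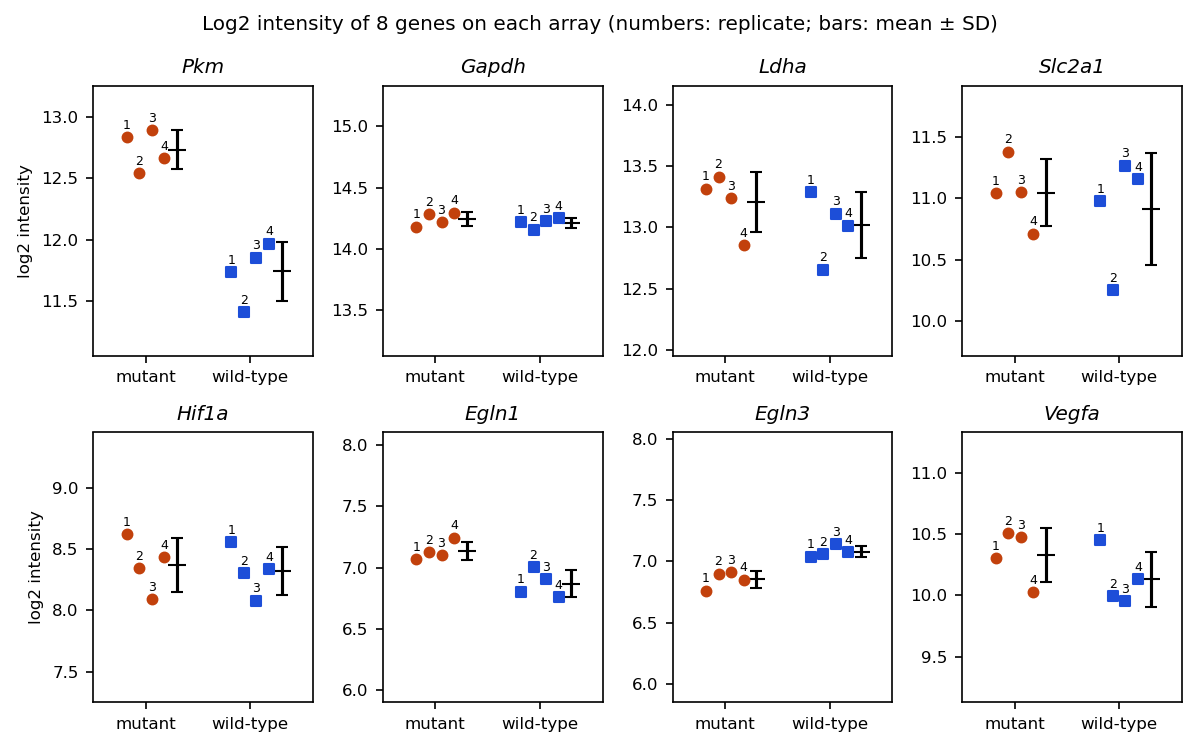
Log2 intensity (vertical axes, each spanning the same range) of 8 genes on the 4 mutant arrays (circles) and the 4 wild-type arrays (squares); numbers give the replicate and bars the mean ± SD. Pkm lies at 12.54 to 12.89 in the mutant and 11.41 to 11.97 in the wild-type, while Gapdh, Ldha, Slc2a1, Hif1a and Vegfa overlap between the groups.

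HIF binds a short core, ACGTG or GCGTG, and the stretch of 250 bases before the annotated start was read for it on both strands. These promoters are shown because they belong to the called gene, to Ldha, a standard HIF target 1 step after it, and to the oxygen sensors Egln1 and Egln3, whose groups also did not overlap. Sequences are RefSeq's, build GRCm38.p6, written 5′ to 3′ on the gene's own strand, with the core in capitals in either orientation. Pkm has a pair of annotated starts.
Pkm, upstream start, chr9:59656326-59656575, plus strand: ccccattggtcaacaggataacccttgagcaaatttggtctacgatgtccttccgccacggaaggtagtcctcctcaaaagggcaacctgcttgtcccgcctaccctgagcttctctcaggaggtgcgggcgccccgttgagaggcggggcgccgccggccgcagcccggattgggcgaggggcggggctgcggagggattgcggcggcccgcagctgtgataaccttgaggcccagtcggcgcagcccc
Pkm, downstream start, chr9:59656977-59657226, plus strand: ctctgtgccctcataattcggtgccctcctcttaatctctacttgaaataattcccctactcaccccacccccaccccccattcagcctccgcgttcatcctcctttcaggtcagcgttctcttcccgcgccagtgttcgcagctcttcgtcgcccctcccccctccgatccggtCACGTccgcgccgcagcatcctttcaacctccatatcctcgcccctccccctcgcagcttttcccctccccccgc
Ldha, upstream start, chr7:46845554-46845803, plus strand: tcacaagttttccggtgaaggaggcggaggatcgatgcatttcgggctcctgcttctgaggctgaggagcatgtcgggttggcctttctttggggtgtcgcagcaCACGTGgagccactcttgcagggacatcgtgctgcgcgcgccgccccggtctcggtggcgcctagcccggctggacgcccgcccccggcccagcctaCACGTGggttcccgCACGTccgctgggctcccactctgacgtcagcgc
Egln1, chr8:124949255-124949504, minus strand: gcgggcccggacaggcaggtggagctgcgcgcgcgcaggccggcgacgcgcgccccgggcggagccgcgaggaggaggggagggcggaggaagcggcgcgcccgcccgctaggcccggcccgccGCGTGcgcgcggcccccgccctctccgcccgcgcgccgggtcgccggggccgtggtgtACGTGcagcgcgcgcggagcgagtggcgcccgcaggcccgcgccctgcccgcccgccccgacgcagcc
Egln3, chr12:54203875-54204124, minus strand: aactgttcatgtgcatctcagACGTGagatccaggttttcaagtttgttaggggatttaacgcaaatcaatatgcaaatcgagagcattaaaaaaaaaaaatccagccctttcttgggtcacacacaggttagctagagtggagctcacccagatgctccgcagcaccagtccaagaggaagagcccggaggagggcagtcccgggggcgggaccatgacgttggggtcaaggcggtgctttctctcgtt
The upstream window of Pkm holds 0 such cores and its downstream window 1, against 5 in that of Ldha, where each of the CACGTG boxes counts on both strands; a downstream Ldha window, chr7:46846832-46847081, not printed, holds 1. Of the 48 windows annotated to listed genes, 39 (81.2%) hold at least 1 core, against 38.6% of 32851 windows of all genes; the windows of the listed genes have a mean GC content of 61.3% against 53.2%, and many were listed as HIF targets. Windows were found for 26 of the 28 tested genes. A core in these letters is a description and not a binding site.

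Transporters bring glucose into the cell at the start of the pathway and export lactate at its end. Slc2a1, the glucose transporter of brain vessels and many embryonic cells, had log2 intensities of 11.04, 11.38, 11.05 and 10.71 in the mutant, against 10.98, 10.25, 11.27 and 11.15 in the wild-type (0.13 ± 0.22, SE, n = 4 per group; limma adjusted p = 0.791). The groups overlapped, with the lowest value on wild-type replicate 2, and the sign of the difference turned without that array (-0.09). Slc2a3, the neuronal glucose transporter, had 8.97, 9.42, 9.11 and 9.28 in the mutant, against 10.09, 9.50, 9.28 and 9.25 in the wild-type. Its difference of -0.33 ± 0.18 (adjusted p = 0.365) was not called, and wild-type replicate 1 was the highest of the 8 arrays. Leaving that array out gave -0.14 (adjusted p = 0.558). Against wild-type replicates 1 and 2 alone Slc2a3 differed by -0.60, and against replicates 3 and 4 alone by -0.066, without passing. The lactate exporter Slc16a3 differed by -0.11 where its signal was strongest, and 2 dimmer probes of the gene, both under the filter level, stood at 0.16 and 0.11. Slc16a1, a carrier of lactate and pyruvate, lay under the filter level of 6.71 on all 8 arrays, at 6.20 to 6.47 in the mutant and 6.18 to 6.36 in the wild-type.

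The preparatory steps carry glucose to the triose phosphates. Of 9 tested genes none was called, and 8 differences were positive and 1, that of Pfkp, negative. Aldoa, the main aldolase, had 11.92, 11.93, 11.79 and 11.44 in the mutant, against 11.71, 11.60, 11.39 and 11.78 in the wild-type (0.15 ± 0.13; limma adjusted p = 0.577). Tpi1, triose phosphate isomerase, had 13.50, 13.64, 13.56 and 13.23 in the mutant, against 13.58, 13.46, 13.35 and 13.43 in the wild-type (0.025 ± 0.10; adjusted p = 0.924). Both genes overlapped between the groups, and mutant replicate 4 was the lowest mutant array for each. The hexokinases that trap glucose in the cell differed by 0.14 ± 0.09 (Hk1) and 0.0025 ± 0.29 (Hk2), the second with the largest error after Pfkp and a range of 9.34 to 10.20 in the mutant and 9.04 to 10.35 in the wild-type. Pfkfb3, which makes the activator of phosphofructokinase, differed by 0.12 ± 0.09, and the brain aldolase Aldoc by 0.075 ± 0.19.

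Phosphofructokinase, the committing enzyme, is built from subunits of 3 genes, none of which was called. Liver-type Pfkl differed by 0.15 ± 0.15 and muscle-type Pfkm by 0.12 ± 0.13, and platelet-type Pfkp stood at -0.31 ± 0.31 (limma adjusted p = 0.632, 0.665 and 0.634). Pfkp, described after its values were seen, had 8.21, 8.16, 8.37 and 7.83 in the mutant, against 9.10, 9.05, 7.56 and 8.11 in the wild-type. Wild-type replicates 1 and 2 lay above every mutant array and wild-type replicate 3 below every one. A second probe of Pfkp showed the same order in the wild-type (8.09, 7.80, 7.15 and 7.45) and a difference of -0.31 ± 0.16, and its dimmest probe, under the filter level, differed by -0.017 ± 0.09 with another order (5.74, 5.91, 6.07 and 5.80). Without wild-type replicates 3 and 4 Pfkp was called lower in the mutant (-0.93, adjusted p = 0.0129), where 1.41% of all genes were called lower and 0.963%, with Pkm as the 1 listed gene, higher, and without replicates 1 and 2 its difference was 0.30 (adjusted p = 0.310). That second split called Aldoc (0.43, against -0.28 in the first split), P4ha2 (0.45, against -0.087) and Pkm higher and none of the 28 lower, where 6.83% of all genes were called higher and 6.8% lower. Cell cycle and erythroid levels were also higher on wild-type replicates 3 and 4. So were endothelial (0.10, against -0.05 on replicates 1 and 2) and mesenchyme and cartilage levels (0.11, against -0.03). Sensory neuron, glial and skeletal muscle levels were lower there. Their means were -0.28, 0.06 and -0.28, against 0.09, 0.42 and 0.29 on wild-type replicates 1 and 2. The glial level rests on 3 genes. Fabp7 and Gfra3 were lower there, while Egr2 stood at 8.19 and 7.88, against 7.73 and 7.93 on replicates 1 and 2. The part of any of these levels in the Pfkp result was not tested.

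**Figure D2:**
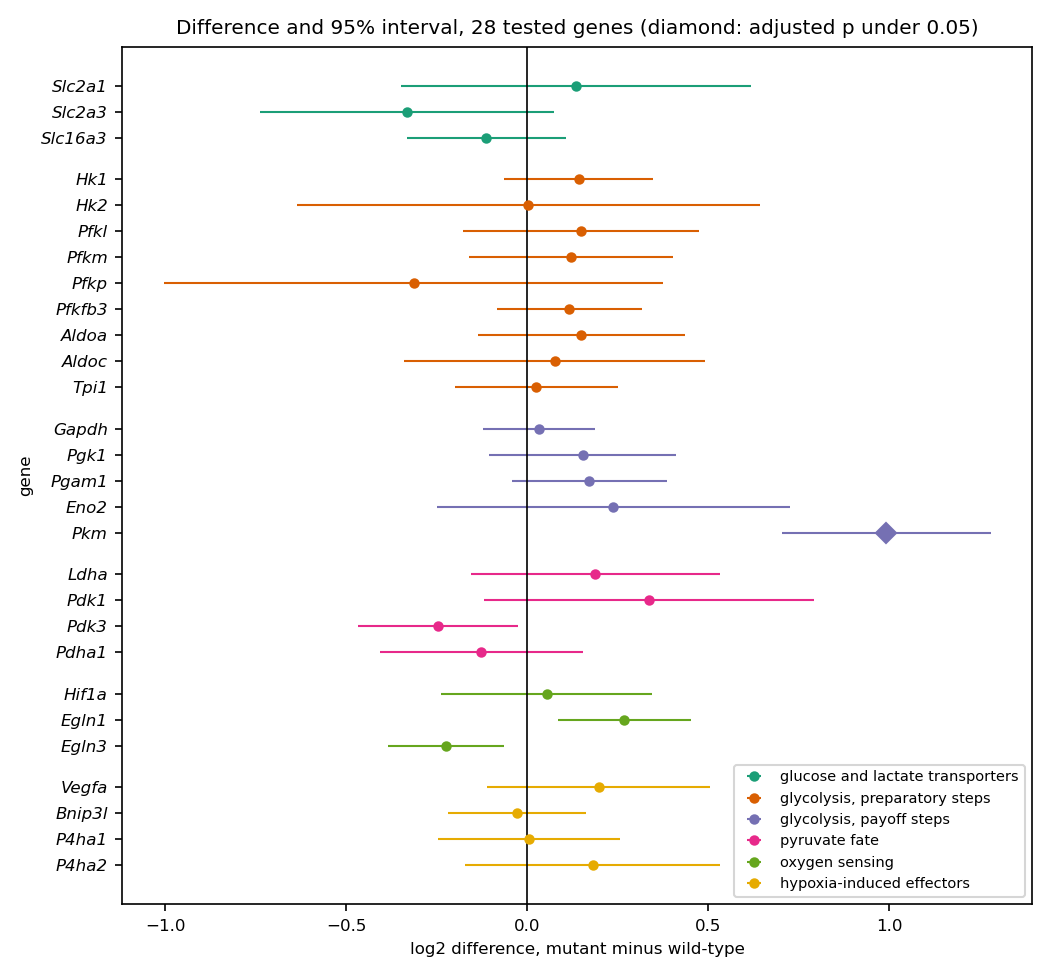
Log2 difference between mutant and wild-type (horizontal axis) with its 95% interval for the 28 tested genes, coloured by role; the diamond marks an adjusted p under 0.05. Pkm at 0.99 has an interval from 0.70 to 1.28, and the other 27 points lie between -0.33 and 0.34.

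In the steps that yield ATP 5 genes were tested, and Pkm was the 1 called. Gapdh, the dehydrogenase often used as an internal standard, had 14.18, 14.28, 14.22 and 14.30 in the mutant, against 14.22, 14.16, 14.23 and 14.25 in the wild-type. Its difference of 0.032 ± 0.07 (limma adjusted p = 0.852) has a 95% interval from -0.12 to 0.19, and its second probe differed by 0.055 ± 0.08. Under median scaling Gapdh stood at -0.10 and Pkm at 0.85, which kept its call (adjusted p = 0.00791). The mutase Pgam1 differed by 0.17 ± 0.10 (adjusted p = 0.375) and the neuronal enolase Eno2 by 0.24 ± 0.22 (adjusted p = 0.605). Pgk1, phosphoglycerate kinase, was dim at 6.51 to 7.01 in the mutant and 6.58 to 6.84 in the wild-type (0.15 ± 0.12), and its mean was above the filter level of 6.71 in the mutant group only, so that the filter itself favoured a positive difference.

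Pyruvate is then reduced to lactate or enters the mitochondrion. Ldha, the lactate dehydrogenase subunit that favours lactate, had 13.32, 13.41, 13.24 and 12.86 in the mutant, against 13.29, 12.66, 13.11 and 13.02 in the wild-type. The groups overlapped, with mutant replicate 4 below 3 of the wild-type arrays (0.19 ± 0.15; limma adjusted p = 0.558). Pdha1, the catalytic alpha subunit of pyruvate dehydrogenase, had 10.93, 10.93, 10.82 and 11.27 in the mutant, against 11.38, 11.16, 10.95 and 10.97 in the wild-type (-0.13 ± 0.13; adjusted p = 0.636). The kinases that switch this enzyme off differed in sign: Pdk1, a HIF target, stood at 0.34 ± 0.20 and Pdk3 at -0.25 ± 0.10. Neither was called (adjusted p = 0.420 and 0.224). Pdk3 ranged from 8.09 to 8.37 in the mutant and from 8.26 to 8.58 in the wild-type, and Pdk1 from 7.42 to 8.32 in the mutant and from 7.42 to 8.08 in the wild-type.

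Oxygen sensing gave small differences of opposite sign. Hif1a, the oxygen-regulated subunit of HIF, had log2 intensities of 8.62, 8.34, 8.09 and 8.43 in the mutant, against 8.55, 8.31, 8.08 and 8.34 in the wild-type (0.054 ± 0.13; limma adjusted p = 0.871). The groups cover almost the same range; Hif1a is controlled largely at the protein level, which arrays do not measure. Egln1, the main prolyl hydroxylase that marks it, had 7.07, 7.13, 7.10 and 7.25 in the mutant, against 6.80, 7.01, 6.91 and 6.76 in the wild-type. Every mutant array lay above every wild-type array, but the difference of 0.27 ± 0.08 was not called (adjusted p = 0.126). The other 2 probes of Egln1 differed by 0.12 ± 0.09 and, at the probe under the filter level, 0.13 ± 0.10. Egln3, a hydroxylase that is itself HIF-induced, had 6.76, 6.90, 6.91 and 6.85 in the mutant, against 7.04, 7.06, 7.14 and 7.07 in the wild-type. All mutant arrays lay below all wild-type arrays, the difference of -0.22 ± 0.07 was not called (adjusted p = 0.142), and its second probe, under the filter level, differed by 0.039 ± 0.08. With Pkm, 2 of 28 genes lay wholly higher and 1 wholly lower in the mutant, against 6.3% and 5.65% of all genes, shares near the background. Both hydroxylases lay close to the filter level, and without background correction they differed by 0.20 and -0.17.

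Of the effectors that HIF induces, 4 of 9 listed genes were tested and none was called. Vegfa, the signal for vessel growth, had 10.30, 10.51, 10.47 and 10.03 in the mutant, against 10.45, 9.99, 9.95 and 10.13 in the wild-type (0.20 ± 0.14; limma adjusted p = 0.485). The groups overlapped at this probe. A dimmer probe of Vegfa had 7.57, 7.58, 7.48 and 7.54 in the mutant, against 7.39, 7.14, 7.38 and 7.43 in the wild-type, without overlap (0.21 ± 0.09). The third Vegfa probe, under the filter level, differed by -0.099 ± 0.08. Bnip3l, a mitophagy receptor that also clears mitochondria from maturing red cells, had 11.88, 11.94, 12.03 and 11.89 in the mutant, against 12.13, 11.98, 11.83 and 11.91 in the wild-type (-0.03 ± 0.09; adjusted p = 0.890). The collagen prolyl hydroxylase subunits P4ha1 and P4ha2 stood at 0.0045 ± 0.11 and 0.18 ± 0.16. Genes commonly read as signs of strong hypoxia were dim: Adm, a vasodilator peptide, lay at 6.13 to 6.59 in the mutant and 6.19 to 6.53 in the wild-type, the mitophagy receptor Bnip3 at 5.94 to 6.01 in the mutant and 5.88 to 6.03 in the wild-type, and the 3 probes of the carbonic anhydrase Car9 at 5.87 to 6.66 in the mutant and 5.91 to 6.53 in the wild-type. These probes were all under the filter level of 6.71, and without detection p-values their presence is not known.

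Viewed as a list, 21 of the 28 tested genes had positive differences and 7 negative, or 20 of 27 without Pgk1, which passed the filter through the mutant group alone, against 50.5% positive among all genes; the genes share arrays and many share regulators, so this is a description. The median difference was 0.12 against 0.0018 over all genes, and for the 14 tested glycolytic enzymes it was 0.13. The mean level of the 28 genes, as the mean deviation from each gene's mean over the arrays, was 0.07, 0.11, 0.05 and -0.06 on mutant arrays 1 to 4, against 0.13, -0.10, -0.13 and -0.06 on wild-type arrays 1 to 4. The highest of the 8 values was wild-type replicate 1, and the groups overlapped. The difference in level was 0.084 with Pkm and 0.050 without it; with Pkm it was 0.0058 under median scaling, and 0.054 to 0.14 with 1 array left out. Without wild-type replicates 3 and 4 the median was 0.038, with 15 of 28 positive, against 51.4% of all genes. Without wild-type replicates 1 and 2 it was 0.15, with 22 of 28 positive, against 50.4% of all genes. Under scaling to the array median it was 0.018, with 16 positive, where the median of all genes was -0.06.

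**Figure D3:**
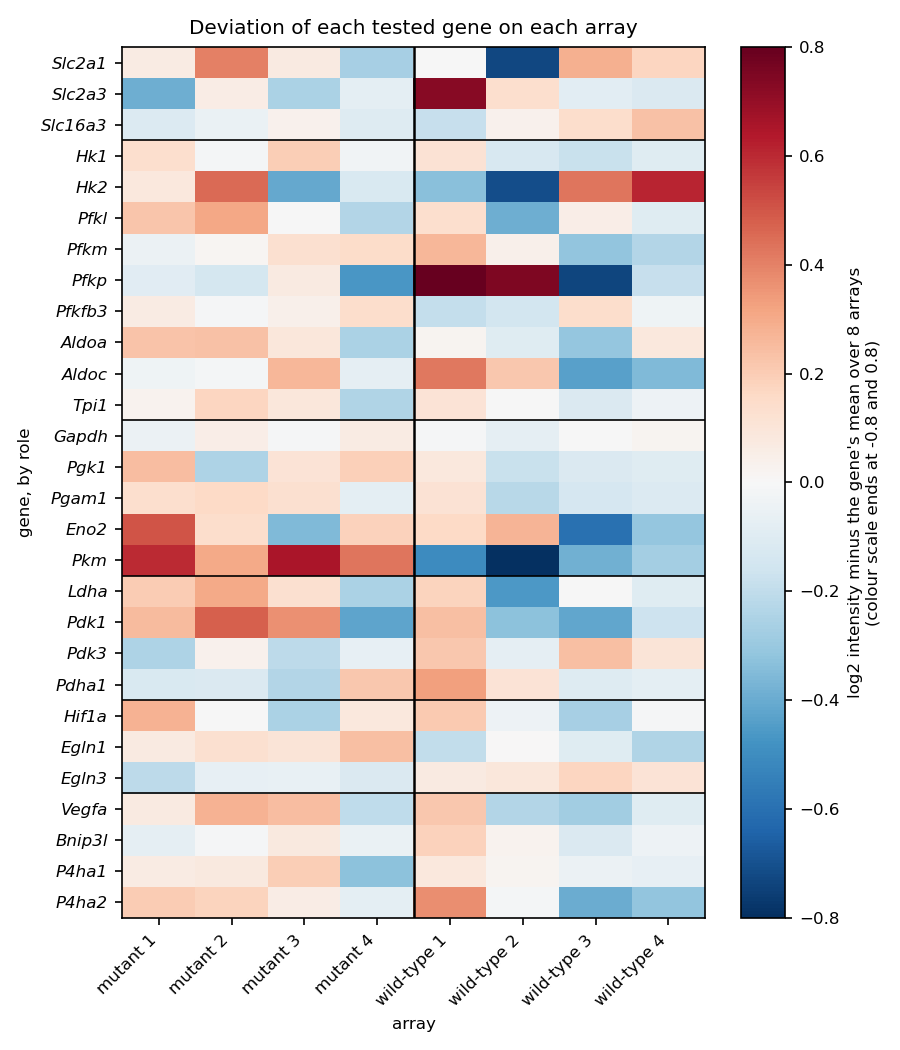
Deviation of log2 intensity from each gene's own mean over the 8 arrays (colour), for the 28 tested genes in rows by role and the 4 mutant and 4 wild-type arrays in columns. Pkm is above its mean on all 4 mutant arrays and below it on all 4 wild-type arrays. Many other rows are low on mutant replicate 4 or wild-type replicate 3 and high on wild-type replicate 1.

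Arrays of the same genotype differed in this pathway. Among the 4 mutant arrays, replicate 4 was the lowest for 13 of the 28 genes (46.4%), including Ldha, Aldoa, Pfkl, Tpi1, Pgam1, Pdk1, Slc2a1, Vegfa and P4ha1; it was the lowest for 30.1% of all genes. Among the 4 wild-type arrays, replicate 1 was the highest for 17 of the 28 (60.7%), against 25.4% of all genes. Wild-type replicate 3 was the lowest of its group for 13 of the 28 (46.4%), against 29.7% of all genes. Pdk1 shows the spread: mutant replicate 4 and wild-type replicate 3, both at 7.42, were the lowest of the 8 arrays. Wild-type replicate 1 at 8.08 lay close to mutant replicate 1 at 8.09. Of 33 further HIF-responsive genes, 17 (51.5%) were lowest on mutant replicate 4 and 15 (45.5%) highest on wild-type replicate 1. Markers of macrophages moved with mutant replicate 4: the mean level of 8 tested genes out of 9 listed was 0.38, 0.60, 0.88 and -0.54 on mutant arrays 1 to 4, against -0.35 to -0.31 on the wild-type arrays, with 0 of 8 called. Other lists also set that array apart from mutant arrays 1 to 3. Its endothelial level was -0.23 (against -0.03 to 0.11) and its mesenchyme and cartilage level -0.21 (against -0.07 to 0.09). Its sensory neuron level was 0.28 (against -0.02 to 0.07) and its skeletal muscle level 0.73 (against -0.69 to 0.44). The part of any of these levels, macrophage markers included, in the low pathway level of that array was not tested. On that array Pkm stood at 12.66, and its difference without the array was 1.02; the part of macrophage markers in the Pkm result was not tested. Erythroid markers, 6 of 10 tested, were at -0.33 to -0.07 in the mutant, against -0.12, -0.41, 0.90 and 0.50 on wild-type arrays 1 to 4. In whole ganglia fewer cells of a type and less RNA per cell cannot be told apart.

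**Figure D4:**
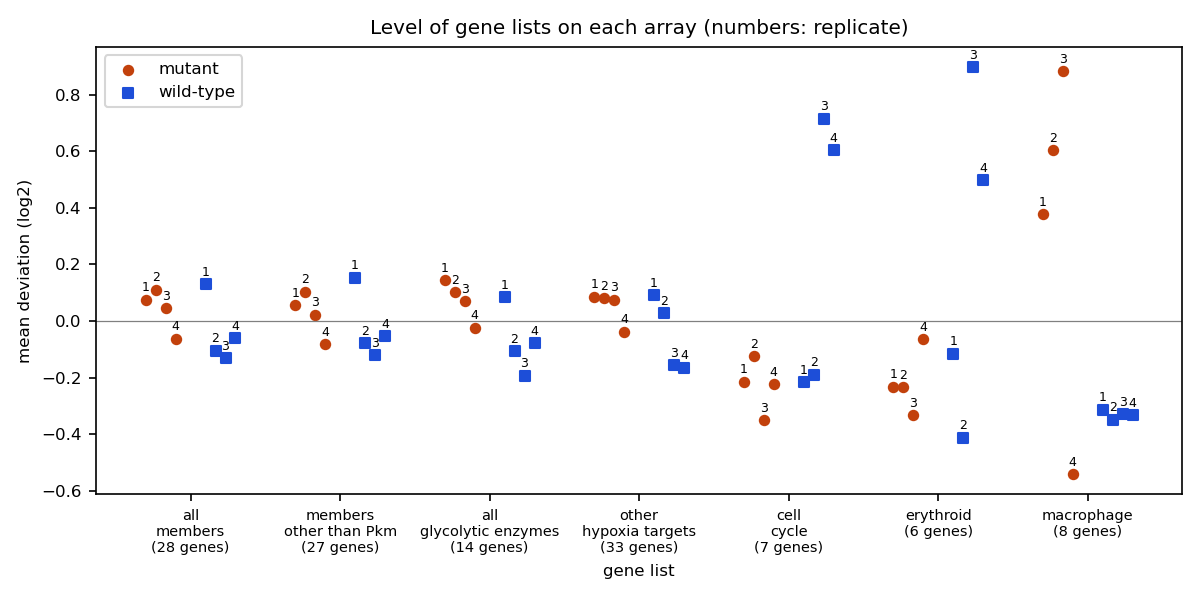
Mean deviation of log2 intensity (vertical axis) of 7 gene lists on each mutant array (circles) and wild-type array (squares), with replicate numbers. The 28 genes of the pathway overlap between groups, cell cycle and erythroid lists are high on wild-type replicates 3 and 4, and the macrophage list is high on mutant replicates 1 to 3.

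Genes around the pathway were read from further lists. Among 9 tested genes of oxygen sensing, Cited2, a HIF-induced protein that competes with HIF for its coactivator, was called higher. It had 8.24, 8.54, 8.57 and 8.37 in the mutant, against 7.58, 7.67, 8.03 and 7.91 in the wild-type (0.63 ± 0.12, SE, n = 4 per group; limma adjusted p = 0.0282). The groups did not overlap, and the call was also made with wild-type replicates 3 and 4 left out (0.81, adjusted p = 0.0104). With those 2 as the only wild-type arrays it was made as well (0.46, adjusted p = 0.0343). Leaving out a single array ended the call for 3 wild-type arrays (1, 2 and 4) and 3 mutant arrays (1, 2 and 3), at an adjusted p of 0.0509 to 0.0911. The brightest others, Os9 (-0.04 ± 0.11) and Siah1a (-0.02 ± 0.08), a ligase that targets the hydroxylases, did not pass. Siah2, a related ligase, stood at 0.38 ± 0.09 without passing; it was chosen after its values were seen. It passed without wild-type replicates 1 and 2 (0.47, adjusted p = 0.016) and not without replicates 3 and 4 (0.29, adjusted p = 0.175).

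Of 33 tested HIF-responsive genes outside the list, Higd1a and Bhlhe40 passed the filter through the mutant group alone. Of the other 31, 24 had positive differences, against 50.5% of all genes that passed in both groups. The genes share arrays, so this is a description. The mean level of the 33 genes was 0.05 on the mutant arrays and 0.06 on wild-type replicates 1 and 2. On wild-type replicates 3 and 4 it was -0.16. Ddit4, which restrains mTOR under stress, was the 1 called. It had 10.84, 10.92, 11.09 and 10.49 in the mutant, against 10.34, 10.26, 10.07 and 10.03 in the wild-type (0.66 ± 0.13; limma adjusted p = 0.0328). Mutant replicate 4 was again the lowest mutant array, still above all wild-type arrays. The call was lost without wild-type replicates 3 and 4 (0.53, adjusted p = 0.116) but not without replicates 1 and 2 (0.78, adjusted p = 0.0127). It was also lost under the replicate block (adjusted p = 0.0644) and without each of wild-type replicates 2, 3 and 4 and mutant replicates 1, 2 and 3 (adjusted p = 0.0505 to 0.105). Anxa2 and Mif, the brightest of these genes, differed by 0.04 ± 0.22 and 0.031 ± 0.09. Both Ddit4 and Cited2 also answer to other signals, including the stress and growth factor pathways.

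The routes that branch from or follow glycolysis showed 0 calls. Of 9 other glycolytic isoenzymes and regulators, Fbp2 passed the filter through the mutant group alone, and 7 of the other 8 had positive differences, against 50.5% of all genes; Pgm1, which feeds glycogen glucose into the pathway, stood at -0.014 ± 0.17 and Pfkfb4 at 0.27 ± 0.11 (limma adjusted p = 0.219). Of 19 genes of pyruvate oxidation and the citric acid cycle, 7 were positive and 12 negative with a median of -0.05, among them Suclg1, a succinate-CoA ligase subunit (-0.14 ± 0.07), and Idh3g, an isocitrate dehydrogenase subunit (0.013 ± 0.08). Suclg1 lay at 12.52 to 12.59 in the mutant and 12.60 to 12.78 in the wild-type, wholly lower, with an adjusted p of 0.362. In that list Sdhb, a succinate dehydrogenase subunit, was also wholly lower (-0.24 ± 0.08, adjusted p = 0.132) and the phosphatase Pdp2 wholly higher (0.24 ± 0.07, adjusted p = 0.125), against 5.65% and 6.3% of all genes; both were chosen after their values were seen. Of 10 genes of the pentose phosphate pathway and glycogen, 4 were positive and 6 negative with a median of -0.04; Taldo1 (-0.09 ± 0.08) and Pgls (-0.05 ± 0.13) were the brightest. Pfkfb4 is on both the isoenzyme list and the HIF-responsive list. Over these lists and those of oxygen sensing and HIF-responsive genes together, 2 of 79 tested genes, Cited2 and Ddit4, were called higher (1.4% of all genes were). Of the same 79, 0 were called lower (1.11% of all genes were).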

How the data were processed

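The authors deposited linear bead intensity for 25697 probes, without background subtraction (lowest value 80.3) and no detection p-values; BeadStudio is the only tool named per the submitters' processing notes. The authors' processed log2 table equals log2 of these intensities followed by quantile normalization within 5.0e-09 and served as an alternative. Intensities were corrected with normexp (offset 50), put on the log2 scale and quantile normalized with limma 3.58.1 in R 4.3.3. Probe names came from Entrez identifiers in the platform annotation (GRCm38.p6 gene symbols; 23978 probes with 1 symbol, 1719 without). Probes with a mean above the median of all probes (6.71) were kept, 12848 in number, and the brightest probe stood for each gene, giving 9664 features, 8935 of them named genes. Mutant minus wild-type was fitted with lmFit and eBayes, two-sided, without covariates, adjusted by Benjamini-Hochberg over the 9664 features and called at an adjusted p under 0.05. The number of arrays limits precision; the median SE was 0.10. The procedure was tested on simulated data. Members, gene lists and the split of wild-type arrays were chosen with earlier results of these data known. Genes are given with every array's value if called, if their groups did not overlap, if among the 2 brightest of their role, and for Hif1a; called and the 2 brightest genes of each further list are named. Alternatives covered background, scaling, filter, probe choice, variance model, array weights, a replicate block and arrays left out, with filter and probes held as on all 8 arrays.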

Additional observations from a re-analysis of the deposited data

Results flagged for a closer look

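In 58 groups of 4 arrays (28 genes and the list level in each genotype) 2 single arrays lay far from the other 3, where chance flags about 1 group in 20. Aldoc, the brain aldolase, stood at 7.86 on mutant replicate 3, against 7.53 to 7.58 on the other mutant arrays. Pgam1, the phosphoglycerate mutase, stood at 9.62 on mutant replicate 4, against 9.83 to 9.86 on the other mutant arrays.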

How the results depend on the processing

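Pkm was called higher under each of the 20 alternatives (0.82 to 1.16; limma adjusted p = 0.00237 to 0.0271). The replicate numbers were read as pairs: same-numbered arrays correlated at -0.28 to -0.05 in their deviations from group means. Differently numbered arrays correlated at -0.24 to 0.26. Deviations from the mean of 4 arrays are tied to each other, so these values cannot decide whether same-numbered samples share a litter. The replicate block gave 37 genes higher and 45 lower over all genes. It called 1 of the further pathway genes and Pkm (limma adjusted p = 0.0223). Median scaling gave 57 higher and 181 lower over all genes and a median of 0.018 for the listed genes, the upper-quartile filter 58 lower and 1 further pathway gene, and array weights 200 higher and 4 further pathway genes. Leaving out 1 array gave 29 to 114 genes higher and 38 to 95 lower, 0 to 2 further pathway genes and listed-gene medians of 0.058 to 0.17. Without wild-type replicates 3 and 4, 1 listed gene was called lower; without replicates 1 and 2, 3 listed and 6 further genes were called higher, with 610 genes higher and 608 lower in all. Among uncalled genes the sign turned under median scaling for Hk2 (-0.092), Tpi1 (-0.15), Gapdh (-0.10), Hif1a (-0.0083) and P4ha1 (-0.036), and for Hk2 without background correction (-0.000738, the same in the authors' table) and under cyclic loess (-0.00104). It turned without wild-type replicates 3 and 4 for Slc16a3 (0.019), Pfkm (-0.093), Aldoc (-0.28), Tpi1 (-0.041), Eno2 (-0.095), Hif1a (-0.058), P4ha1 (-0.051) and P4ha2 (-0.087). It turned without replicates 1 and 2 for Slc2a1 (-0.16), Hk2 (-0.52), Pfkp (0.30), Pdha1 (0.026) and Bnip3l (0.064). Leaving out single arrays moved Slc2a1 between -0.086 and 0.25, Hk2 between -0.23 and 0.21, Aldoc between -0.057 and 0.23, Tpi1 between -0.027 and 0.11, Hif1a between -0.029 and 0.15, Bnip3l between -0.073 and 0.027, and P4ha1 between -0.061 and 0.12. The causes were not tested.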

Other observations

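Among HIF-responsive genes, Ndrg1, a differentiation gene also made by Schwann cells, and Lox, a collagen cross-linking oxidase, differed by 0.65 ± 0.32 and 0.87 ± 0.32 over all arrays and did not pass. Both were chosen after their values were seen. Without wild-type replicates 1 and 2 they were called higher in the mutant, at 1.30 and 1.497 (limma adjusted p = 0.00318 and 0.00268), where 6.83% of all genes were called higher. With wild-type replicates 3 and 4 left out instead, they differed by 0.0049 and 0.25 (adjusted p = 0.994 and 0.551). Kdm4b, another HIF-responsive gene chosen after its values were seen, stood at 0.44 ± 0.11 over all arrays without passing (adjusted p = 0.0639). It was called higher without wild-type replicates 1 and 2 (0.56, adjusted p = 0.00464) and not without replicates 3 and 4 (0.32, adjusted p = 0.189). Adpgk, an ADP-dependent glucokinase, stood at 0.45 ± 0.12 over all arrays (adjusted p = 0.0753) and passed when wild-type replicates 3 and 4 were left out (0.64, adjusted p = 0.0128), where 0.963% of all genes were called higher. With replicates 1 and 2 left out instead, it differed by 0.26 and did not pass (adjusted p = 0.1001).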
